A study of Mus musculus with 4 samples.

Results

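The cholesterol synthesis enzymes described here are 5 genes, Hmgcs1, Mvd, Idi1, Fdft1 and Msmo1, of 10225 genes with a spot on a mouse cDNA array. They were looked up by symbol in the probe annotation of the array, and every spot assigned to 1 of them alone was kept, which gave 11 of 18511 such spots. The genes were chosen by their ratios on the 4 arrays, as pathway genes whose extracts differed more within AT-EAE than within control, so that contrast is described here and not tested.

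RNA came from spinal cords of adult female SJL/J mice with AT-EAE (adoptive-transfer experimental autoimmune encephalomyelitis, an autoimmune model of multiple sclerosis) and of adult female SJL/J control mice. Each extract pooled the cords of 2 mice, and each 2-colour array compared 2 extracts of the same group. AT-EAE arrays 1 and 2 and control arrays 1 and 2 each carried extracts 1 and 2 or extracts 3 and 4 of their group. No source used here states the stage of disease, the transferred cells or the treatment of the control mice.

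The deposited values were signed and centred near 0, and are read here as log2 ratios between the extracts of an array, with the base assumed and the channel on top unknown. A ratio of 0 means equal signal in both extracts, and the sign is meaningful only beside other genes of the same array. No array held AT-EAE beside control RNA, so no value below is a change of level with disease. The size of a ratio, with its sign dropped, shows how far a pair of extracts differed, together with dye and spot noise. In bulk cord, fewer cells of a type and less RNA per cell cannot be told apart.

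Cholesterol is made from acetyl-CoA by way of mevalonate, isoprenoid diphosphates, squalene and lanosterol. In the central nervous system it is made locally, because the blood-brain barrier keeps out plasma lipoproteins, and oligodendrocytes use much of it for myelin while astrocytes supply other cells. Transcription of most of the pathway is driven by the sterol-sensing factor SREBP-2, encoded by Srebf2.

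In the order of the pathway, Hmgcs1 (HMG-CoA synthase), which joins acetyl-CoA and acetoacetyl-CoA, lies at chr13:119690351-119708260 of GRCm38.p6. Mvd, which decarboxylates mevalonate diphosphate to isopentenyl diphosphate, lies at chr8:122433596-122443422. Idi1, which interconverts isopentenyl and dimethylallyl diphosphate, lies at chr13:8885606-8892396. Fdft1 (squalene synthase), which joins farnesyl diphosphate units in the first step given to sterols alone, lies at chr14:63145150-63181687. Msmo1, which oxidises methyl groups of sterols after lanosterol, lies at chr8:64718123-64733578. The probe annotation does not place the clones within exons or UTRs.

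Because these genes share a regulator, the 250 bases before the annotated start are shown for the 4 of 5 genes with a RefSeq promoter sequence (GRCm38.p6), 5′ to 3′ on the strand of the gene. Capitals mark CCAAT, the letters bound by NF-Y, and CACCCCAC, the core of the sterol response element of the LDL receptor gene, each on either strand.
Hmgcs1: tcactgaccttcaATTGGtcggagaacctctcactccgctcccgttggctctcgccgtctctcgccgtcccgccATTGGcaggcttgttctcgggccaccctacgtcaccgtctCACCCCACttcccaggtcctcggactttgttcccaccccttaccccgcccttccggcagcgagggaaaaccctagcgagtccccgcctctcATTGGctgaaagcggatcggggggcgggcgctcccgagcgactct
Mvd: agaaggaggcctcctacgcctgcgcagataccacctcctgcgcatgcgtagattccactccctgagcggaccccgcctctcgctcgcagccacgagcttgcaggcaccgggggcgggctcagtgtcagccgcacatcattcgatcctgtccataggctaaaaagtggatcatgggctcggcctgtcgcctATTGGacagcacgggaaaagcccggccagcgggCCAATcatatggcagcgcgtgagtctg
Idi1: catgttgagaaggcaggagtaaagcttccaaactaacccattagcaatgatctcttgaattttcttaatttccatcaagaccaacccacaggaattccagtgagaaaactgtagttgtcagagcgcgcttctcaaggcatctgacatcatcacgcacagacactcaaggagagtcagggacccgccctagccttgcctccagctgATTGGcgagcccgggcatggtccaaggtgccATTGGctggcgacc
Msmo1: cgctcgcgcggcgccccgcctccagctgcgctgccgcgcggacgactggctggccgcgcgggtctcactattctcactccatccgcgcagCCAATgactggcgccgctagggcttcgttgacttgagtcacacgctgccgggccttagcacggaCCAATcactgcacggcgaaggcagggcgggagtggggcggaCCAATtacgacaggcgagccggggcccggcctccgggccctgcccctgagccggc
These are chr13:119690101-119690350 on the plus strand for Hmgcs1, chr8:122443423-122443672 on the minus strand for Mvd, chr13:8885356-8885605 on the plus strand for Idi1, and chr8:64733579-64733828 on the minus strand for Msmo1. CCAAT or its reverse complement ATTGG occurred 3 times for Hmgcs1, 2 times for Mvd, 2 times for Idi1 and 3 times for Msmo1, and in 33.8% of all 32851 promoter windows of that length. CACCCCAC or GTGGGGTG occurred once, for Hmgcs1 with its first base at -136, and in 2.58% of all windows. The letters GGGCGG or CCGCCC, a GC box not capitalised above, occurred 2 times for Hmgcs1, once each for Mvd and Idi1 and 2 times for Msmo1, and in 32.7% of all windows. No marked stretch overlapped another, and a match is a description of these letters alone.

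The arrays differed in how much they measured. Values were present for 10788 to 15635 of the 28704 spots on the AT-EAE arrays and for 18565 to 21139 on the control arrays. Of the 11 enzyme spots, 10 and 7 had a value on AT-EAE arrays 1 and 2, and 11 and 10 on control arrays 1 and 2. All 5 genes had a value on every array, which their choice required. Spots of 1 gene varied on an array with a pooled standard deviation (SD) of 0.24 and 0.36 on AT-EAE arrays 1 and 2, and of 0.24 and 0.28 on control arrays 1 and 2. That SD divided by the square root of the number of spots is given below as the error of a ratio, and it covers variation between spots, not between mice. Markers of cord cells were measured on every array, with 5 of 6 spotted oligodendrocyte and myelin markers on both AT-EAE arrays, against 6 and 5 on the control arrays. Astrocyte markers with a value numbered 8 and 7 of 8 spotted on the AT-EAE arrays, and 8 and 8 on the control arrays.

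Hmgcs1 and Mvd, the first 2 of the 5 along the pathway, had ratios near or below 0, and their spots did not all go the same way. Hmgcs1 had ratios of 0.12 ± 0.17 (2 spots) and -0.44 ± 0.36 (1 spot) on AT-EAE arrays 1 and 2, against -0.09 ± 0.17 and -0.35 ± 0.20 (2 spots each) on control arrays 1 and 2. The AT-EAE and control arrays thus overlapped in both sign and size for this gene. Spot 21811 gave 0.20 on AT-EAE array 1 and no value on AT-EAE array 2, against -0.02 and -0.75 on control arrays 1 and 2. Spot 25414 gave 0.05 and -0.44 on the AT-EAE arrays, against -0.16 and 0.05 on the control arrays. The value of -0.75 was the largest in size among the spots of the 5 enzymes, and on that array the other Hmgcs1 spot lay 0.79 above it, 2.83 times the between-spot SD.

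Mvd, with 4 spots, was near 0 on 3 arrays and low on AT-EAE array 2. Its ratios were -0.03 ± 0.12 (4 spots) and -0.47 ± 0.26 (2 spots) on AT-EAE arrays 1 and 2, against 0.05 ± 0.12 and -0.09 ± 0.14 (4 spots each) on control arrays 1 and 2. AT-EAE array 1 gave the smallest size of the 4, so the groups overlapped. Spot 3091 gave -0.27 and -0.60 on the AT-EAE arrays, against 0.03 and -0.22 on the control arrays. Spot 10449 gave -0.08 and -0.35 on the AT-EAE arrays, against -0.13 and -0.24 on the control arrays. Both were more negative on AT-EAE array 2 than on any other array. Spot 13550 gave -0.04 on AT-EAE array 1, against 0.03 and -0.20 on the control arrays. Spot 19853 stood apart from the other Mvd spots, at 0.29 on AT-EAE array 1, against 0.28 and 0.29 on the control arrays. Its ratio was thus almost the same on every array that measured it, whatever extracts the array carried. Spots 13550 and 19853 had no value on AT-EAE array 2, so the gene's ratio there rests on other spots than on the rest of the arrays. Without spot 19853, Mvd was at -0.13 and -0.47 on the AT-EAE arrays, against -0.03 and -0.22 on the control arrays.

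Idi1, Fdft1 and Msmo1, the other 3, had positive ratios on both AT-EAE arrays. This grouping was made after the values were seen, and Lbr, whose step lies between those of Fdft1 and Msmo1, was at -0.48 on AT-EAE array 2. Idi1 was at 0.45 ± 0.17 and 0.20 ± 0.26 on AT-EAE arrays 1 and 2, against 0.02 ± 0.17 and 0.10 ± 0.20 on control arrays 1 and 2 (2 spots each). Both AT-EAE sizes exceeded both control sizes. On AT-EAE array 1 its spots 18917 and 23966 gave 0.42 and 0.48, 0.06 apart. On AT-EAE array 2 they gave 0.48 and -0.07, 0.55 apart, so the spots differed in sign there. On control array 1 they gave 0.04 and -0.01, and on control array 2 they gave 0.06 and 0.14. By size, 4.61% of 7398 genes were at least as far from 0 as Idi1 on AT-EAE array 1, and 55.5% of 5616 genes on AT-EAE array 2.

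Fdft1 had 1 spot, 19876, with 0.18 ± 0.24 and 0.67 ± 0.36 on AT-EAE arrays 1 and 2, against 0.09 ± 0.24 and -0.02 ± 0.28 on control arrays 1 and 2. The value on AT-EAE array 2 was the highest ratio among the 5 enzymes, a 1.60-fold difference between extracts if the base is 2, and 6.30% of genes on that array were at least as far from 0. On AT-EAE array 1, 32.2% of genes were at least as far from 0 as Fdft1. With a single spot the gene has no second measurement on any array.

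Msmo1 had a spot, 19069, that was positive on all 4 arrays, at 0.45 and 0.33 on AT-EAE arrays 1 and 2, against 0.25 and 0.13 on control arrays 1 and 2. Its second spot, 28534, had a value on control array 1 alone, at -0.32. The gene's ratios were 0.45 ± 0.24 and 0.33 ± 0.36 on the AT-EAE arrays (1 spot each), against -0.04 ± 0.17 (2 spots) and 0.13 ± 0.28 (1 spot) on the control arrays. The near-zero ratio on control array 1 is thus the mean of a pair of spots of opposite sign, 2.39 between-spot SDs apart. By size, 4.53% of genes were at least as far from 0 as Msmo1 on AT-EAE array 1, with 33.2% on the other AT-EAE array.

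**Figure D1:**
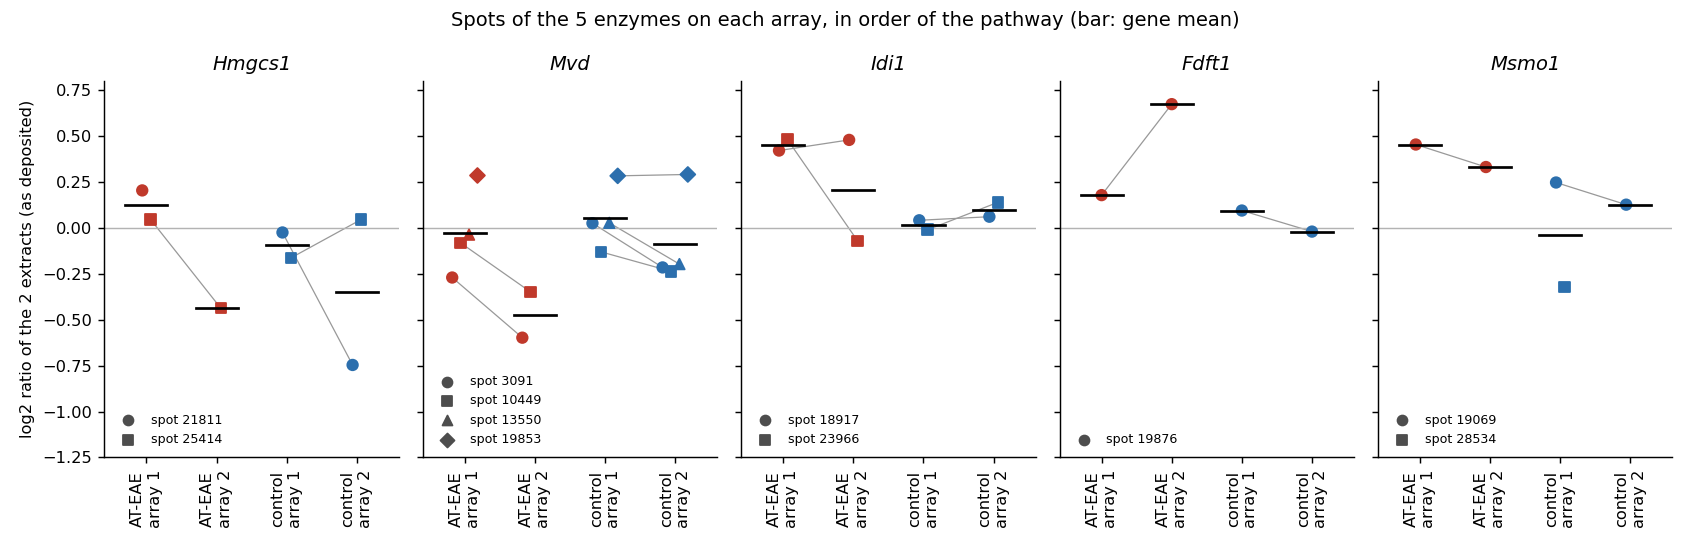
Log2 ratio between the extracts of an array (vertical axis) for every spot of the 5 enzymes, with AT-EAE arrays in red, control arrays in blue, 1 marker shape per spot and a black bar for the gene's mean. Mvd spot 19853 lies between 0.28 and 0.29 wherever it has a value, Idi1 spots part on AT-EAE array 2 at 0.48 and -0.07, and Msmo1 spot 28534 appears on control array 1 alone, at -0.32.

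Few of these ratios were large beside their error. There were 10 gene ratios per group. In AT-EAE only Idi1 on array 1 exceeded 2 errors, at 2.63, and 5 ratios were below 1 error. In control none exceeded 2 errors and 9 were below 1, with Hmgcs1 on control array 2 highest at 1.77. The shares of all genes past these limits were not computed. No group difference is read from the counts, since the sizes by group chose the genes. No enzyme reached an absolute log2 ratio of 1, a 2-fold difference, on any array, where 0.365% and 1.07% of genes did so on AT-EAE arrays 1 and 2, and 0.136% and 0.391% on control arrays 1 and 2. Measured in the spread of genes on each array (SD from the median absolute deviation, MAD, after subtraction of the array median), the 5 enzymes lay between -1.20 and 2.56 SDs on the AT-EAE arrays, and between -1.56 and 0.57 SDs on the control arrays. On AT-EAE arrays 1 and 2, Idi1 lay at 2.55 and 0.84 SDs, Fdft1 at 0.98 and 2.25, and Msmo1 at 2.56 and 1.22. On the same arrays, Hmgcs1 lay at 0.67 and -1.09 SDs and Mvd at -0.20 and -1.20.

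**Figure D2:**
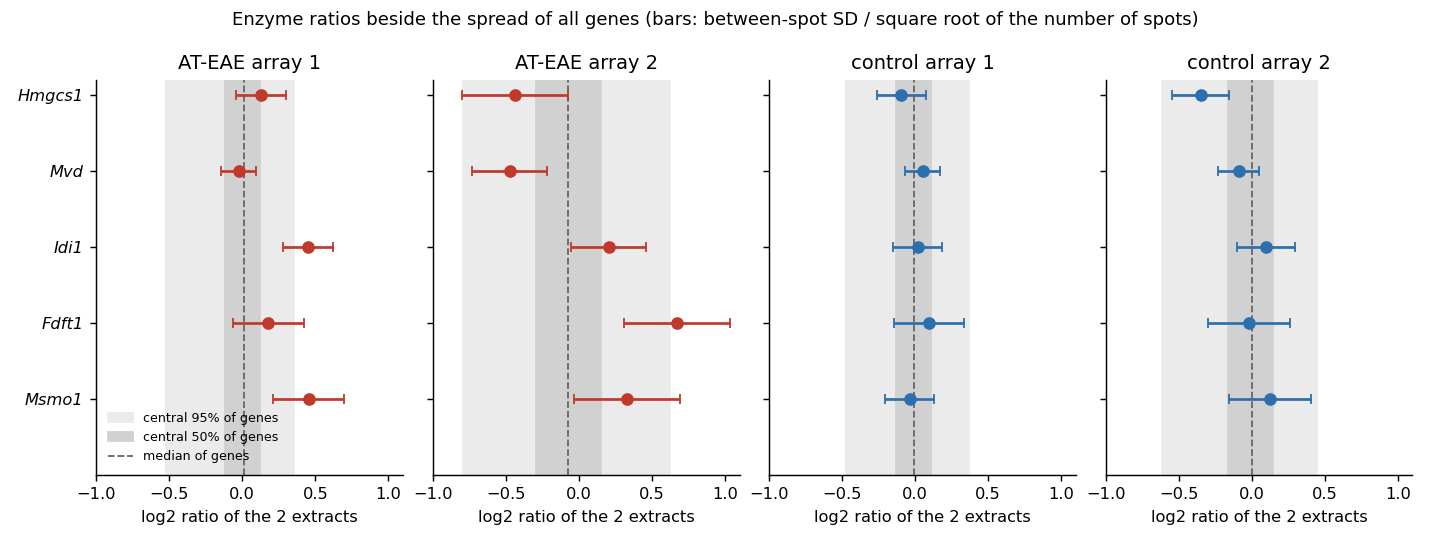
Log2 ratio of each enzyme (points, with the between-spot error as bars) on the 4 arrays, over the central 50% and 95% of all genes (dark and light grey) and their median (dashed line). Idi1 and Msmo1 lie to the right of the light band on AT-EAE array 1 and Fdft1 does so on AT-EAE array 2, while all 5 enzymes lie inside the light band on both control arrays.

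By step of the pathway, the size of the extract difference (mean absolute log2 ratio over the arrays of a group) was larger in AT-EAE than in control for each of the 5 enzymes, as their choice led to. It was 0.28 in AT-EAE and 0.22 in control for Hmgcs1, and 0.25 in AT-EAE and 0.07 in control for Mvd. It was 0.33 in AT-EAE and 0.06 in control for Idi1, 0.43 in AT-EAE and 0.06 in control for Fdft1, and 0.39 in AT-EAE and 0.08 in control for Msmo1. The log2 of the AT-EAE size over the control size was 0.34, 1.82, 2.50, 2.89 and 2.26 in that order, with a median of 2.26, beside 0.38 over the 5429 genes with values on all 4 arrays. The median sizes over those genes were 0.19 in AT-EAE and 0.14 in control, and Mvd, Idi1, Fdft1 and Msmo1 were above the first and below the second. The MAD-based SD of genes was 0.17 and 0.33 on AT-EAE arrays 1 and 2, and 0.18 and 0.23 on control arrays 1 and 2. After centring and division by that SD, the median log2 was 2.25 for the 5 enzymes and 0.03 over all genes. The control sizes of Mvd, Idi1, Fdft1 and Msmo1 were smaller than every between-spot error of a gene ratio here, the lowest of which was 0.12. Both AT-EAE sizes exceeded both control sizes for Idi1, Fdft1 and Msmo1, a count of 3 of 5, beside 20.3% of all genes, from which nothing is read since this contrast chose the genes.

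The sizes of Hmgcs1, Mvd and Msmo1 depended on the spots used. With spots on all 4 arrays alone, Msmo1 was at 0.39 in AT-EAE and 0.19 in control, a log2 of 1.07 in place of 2.26, because spot 28534 dropped out. Mvd was at 0.32 in AT-EAE and 0.14 in control, a log2 of 1.22 in place of 1.82. Hmgcs1 was at 0.24 in AT-EAE and 0.10 in control, a log2 of 1.21 in place of 0.34. The median of the 5 was then 1.22, beside 0.30 over 5376 genes. Idi1 and Fdft1 had all their spots on every array and kept 2.50 and 2.89. When absolute ratios were averaged spot by spot, so that spots of opposite sign could not cancel, the median was 0.93, beside 0.26 over all genes. Hmgcs1 was then at 0.20, Mvd at 0.87, Idi1 at 2.53, Fdft1 at 2.89 and Msmo1 at 0.93. Single arrays also mattered. Without AT-EAE array 2, the value turned to -1.46 for Mvd and to -0.83 for Hmgcs1, while Idi1, Msmo1 and Fdft1 stayed at 2.96, 2.47 and 1.64. Without control array 1, it was -0.32 for Hmgcs1, 1.63 for Msmo1, 1.71 for Idi1 and 4.42 for Fdft1. Without control array 2, it was 1.58 for Hmgcs1, 4.36 for Idi1 and 3.40 for Msmo1. The median over all genes under these 3 omissions was -0.32, 0.36 and 0.74.

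**Figure D3:**
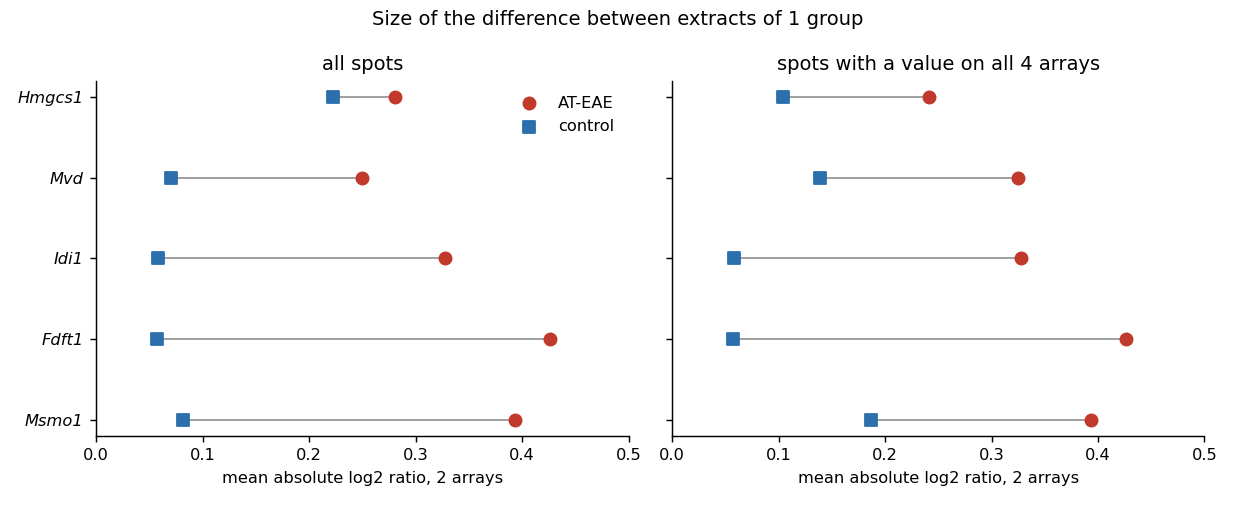
Mean absolute log2 ratio over the 2 arrays of a group (horizontal axis) for each enzyme, with AT-EAE as red circles and control as blue squares, from all spots (left) and from spots with a value on all 4 arrays (right). The control size of Msmo1 moves to 0.19 on the right from 0.08 on the left, while Idi1 and Fdft1 are the same in both panels.

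For each of 10133 spots with a value on every array, limma tested whether the mean ratio, averaged equally over the groups, differed from 0. This mean is called the shared ratio, though it can differ from 0 while some arrays have ratios near 0. What a shared ratio comes from was not tested. None of the 7 enzyme spots tested passed a Benjamini-Hochberg adjusted p of 0.05 (limma, lowest adjusted p = 0.32), beside 0.0395% of all spots. At an unadjusted limma p under 0.05 the count was 3 of 7, beside 12.6% of all spots. These were Msmo1 spot 19069 with a mean ratio of 0.29 ± 0.11 (SE), Idi1 spot 18917 at 0.25 ± 0.10 and Mvd spot 3091 at -0.26 ± 0.11. Each had its larger ratios on the AT-EAE arrays, whose values chose the genes. In the limma test of signed ratios, AT-EAE minus control, 0 of 7 spots passed and 0 had an unadjusted p under 0.05, beside 0 and 3.61% of all spots. That difference has no meaning as a level, because extract numbers are arbitrary. Over all spots, ratios correlated between AT-EAE array 1 and control array 2 (r = 0.35, 14745 spots) and between AT-EAE array 2 and control array 1 (r = 0.32, 10534 spots), which share no extract. The other pairs of arrays had r from -0.01 to 0.20. These are descriptions across spots, which are not independent.

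Of 17 other genes of the pathway, 6 had a spot and 2 had values on all 4 arrays. Cyp51, which removes a methyl group from lanosterol, was at 0.05 and 0.18 on AT-EAE arrays 1 and 2, against 0.07 and 0.00 on control arrays 1 and 2. Lbr, a sterol reductase that is also a receptor for lamin B, was at 0.09 and -0.48 on the AT-EAE arrays, against 0.05 and 0.27 on the control arrays. The Lbr value on control array 1 is the mean of spots 17452 and 21803, at -0.13 and 0.24. On the other arrays only spot 17452 had a value. The values of Cyp51 and those of Lbr overlapped in size between the groups. Sqle, the squalene epoxidase that follows Fdft1, had values of 0.13 from each of its 2 spots on AT-EAE array 1 and none on AT-EAE array 2. On the control arrays its spots gave 0.06 and -0.13 on array 1 and -0.19 and 0.01 on array 2. Ebp, a sterol isomerase, had a value on control array 1 alone, and the single spots of Nsdhl and Dhcr7 had none. The other genes, among them Fdps and Lss, had no spot assigned to 1 gene and were not analysed here. Neither of the 2 complete spots passed limma for a shared ratio, beside 0.0395% of all spots. At an unadjusted limma p under 0.05 the count was 0 of 2, beside 12.6%, too few spots for a reading.

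With all spots, the 3 sterol and isoprenoid lists around the pathway had medians on both sides of that of all genes. With spots on all 4 arrays alone, their medians all lay below it. They were then -0.64 for sterol regulation, -0.08 for the isoprenoid branch and -0.002 for sterol transport and turnover, beside 0.30. Of the sterol regulation list, 4 of 15 genes had values on all 4 arrays, and the median log2 of AT-EAE over control size was -0.16. Srebf1, a sterol and lipid transcription factor, was at 0.11 and 0.26 on AT-EAE arrays 1 and 2, against 0.11 and 0.26 on control arrays 1 and 2. Stard4, a cholesterol transfer protein and sterol-regulated gene, was at 0.02 and 0.25 on the AT-EAE arrays, against -0.01 and 0.11 on the control arrays. Srebf2 was not among the complete genes. The liver X receptor gene Nr1h3, which senses oxysterols, was the 1 gene of this list with both AT-EAE sizes below both control sizes, at -0.04 and -0.04 in AT-EAE, against 0.09 and 0.12 in control, beside 10.3% of all genes. Of the isoprenoid branch, 3 of 10 genes were complete, with a median of 0.75, or -0.08 with spots on all 4 arrays alone. Its Pggt1b, a subunit of a protein prenyltransferase, had both AT-EAE sizes above both control sizes, at 0.11 and -0.20 in AT-EAE, against 0.01 and 0.10 in control, as 20.3% of all genes did. Of sterol transport and turnover, 9 of 19 genes were complete, with a median of -0.10 and no gene whose groups were apart in size, beside 20.3% of all genes with AT-EAE higher and 10.3% with AT-EAE lower. Its Abca1, a cholesterol exporter, was at -0.59 and 0.05 on the AT-EAE arrays, against 0.03 and -0.32 on the control arrays. In these 3 lists and fatty acid synthesis together, 0 of 36 spots passed limma for a shared ratio, beside 0.0395% of all spots, with 7 of 36 at an unadjusted p under 0.05, beside 12.6%.

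**Figure D4:**
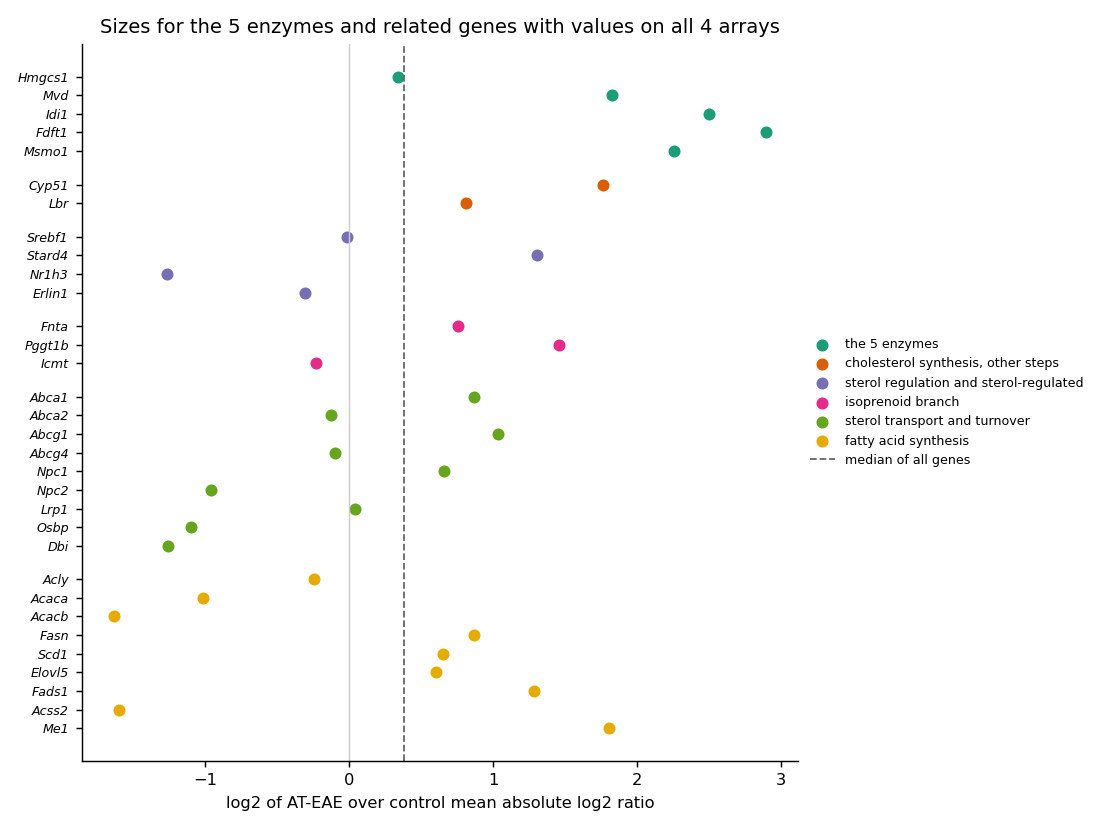
Log2 of AT-EAE over control mean absolute log2 ratio (horizontal axis) for the 5 enzymes and for genes of 5 related lists with values on all 4 arrays, 1 point per gene, with the median of all genes as a dashed line at 0.38. The enzymes run from 0.34 for Hmgcs1 to 2.89 for Fdft1, and the related genes run from -1.63 for Acacb to 1.81 for Me1.

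Cell type markers are given beside these ratios. On AT-EAE array 1, where Idi1 and Msmo1 were high, all 5 measured of 17 oligodendrocyte and myelin markers lay below the array median, from -0.56 to -0.07. All 10 measured microglia and macrophage markers also lay below it there, from -1.02 to -0.06, and astrocyte markers were split, 4 above and 4 below. On AT-EAE array 2, where Fdft1 was high, oligodendrocyte and myelin markers had 3 of 5 above and a median of 0.01, and astrocyte markers had 5 of 7 above and a median of 0.28. On control arrays 1 and 2, oligodendrocyte and myelin markers had 4 of 6 and 0 of 5 above, with medians of 0.11 and -0.10. On control array 2 they thus also all lay below the array median, from -0.30 to -0.03. Astrocyte markers had 8 of 8 and 5 of 8 above on control arrays 1 and 2, with medians of 0.17 and 0.11. Microglia and macrophage markers had 4 of 7 above on AT-EAE array 2, against 5 of 9 and 7 of 10 on control arrays 1 and 2. Neuron markers had 2 of 5 and 0 of 4 above on AT-EAE arrays 1 and 2, against 3 of 5 on each control array. Meninges and fibroblast markers had 1 of 7 and 2 of 5 above on AT-EAE arrays 1 and 2, against 0 and 1 of 7 on control arrays 1 and 2. The 5 complete genes of this last list had a median log2 of AT-EAE over control size of 2.10, also with spots on all 4 arrays alone, beside 2.26 and 1.22 for the 5 enzymes. Both AT-EAE sizes exceeded both control sizes for 2 of these 5, beside 20.3% of all genes. No T cell marker had a value on any array, with 1 of 9 spotted. The part of cell content in the enzyme ratios was not tested.

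The genes nearest to each enzyme were taken by Euclidean distance over the 4 gene ratios, among 5429 genes. They were Arfgef1 and Pard3 for Hmgcs1, at distances of 0.07 and 0.08, and Rbm4b and Eif2ak3 for Mvd, at 0.01 and 0.06. For Idi1 they were Socs7 and Lmo7, at 0.13 and 0.14, with Msmo1 next at 0.14. For Fdft1 they were Pfkfb3 and Dipk1a, at 0.08 and 0.09, and for Msmo1 they were Hoxd8 and Socs7, at 0.10 and 0.12, with Idi1 at rank 8. Between 18 and 111 genes lay within 0.2 of an enzyme, so with 4 arrays many genes share such a pattern. Idi1 and Msmo1 were the closest pair of the 5, at 0.14, Hmgcs1 and Mvd were 0.34 apart, and the enzyme nearest to Fdft1, Msmo1, was 0.48 away at rank 607. The distances of Msmo1 rest on its ratio of -0.04 on control array 1, the mean of spots at 0.25 and -0.32. Distances without spot 28534 were not computed.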

How the data were processed

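Gene expression in spinal cord was measured on 4 cDNA arrays, 2 of AT-EAE and 2 of control mice. The deposited values are the authors' log ratios of normalized green and red signals, per the labels, and were read as log2. For the base, direction, background correction, spot filter, normalization and software, the answer is not given in the sources used here. Signal over background was not used. Columns of no sample numbered 0. Of 28704 spots, 18511 had 1 gene, 937 several and 9256 none, from the platform's annotation, and symbols were updated through gene identifiers to GRCm38.p6 for 18267 and kept for 244. Spots of a gene were averaged on each array.

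The members and lists were chosen with earlier results of these data known. By rule, the text named the 5 enzymes and the 2 genes nearest to each, and could name complete genes of the sterol lists. The examples from those lists, the incomplete pathway genes and the fatty acid genes were chosen after their values were seen. Spots with values on all 4 arrays were tested with limma 3.58.1 (R 4.3.3), as the ratio averaged equally over the groups and as AT-EAE minus control, with Benjamini-Hochberg adjustment at 0.05. The test was checked on simulated ratios, independent between arrays, with planted shifts larger than any enzyme ratio here. Its power at the size of the enzyme ratios was not tested. The labels call the extracts distinct, and p-values measure the spread between arrays. Their number, 2 per group, limits the precision. Alternatives changed the summary over spots, the spots, centring, scaling, the summary over arrays, the block and each array in turn. Python 3.11.15 with numpy 2.4.6, pandas 2.3.3 and matplotlib 3.10.9 was used.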

Additional observations from a re-analysis of the deposited data

How the results depend on the processing

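The median log2 of AT-EAE over control size of the 5 enzymes, 2.26, moved to 1.22 with spots on all 4 arrays alone and to 0.93 with absolute ratios per spot, an alternative chosen after seeing the data. It ranged from 1.63 to 2.27 when each array was left out. For Hmgcs1 it changed sign to -0.22 after centring and division by the MAD-based SD, to -0.83 without AT-EAE array 2 and to -0.32 without control array 1, and for Mvd to -1.46 without AT-EAE array 2. With each array left out in turn, Hmgcs1 ran from -0.83 to 1.58 and Mvd from -1.46 to 2.75. Of the 7 pathway genes with values on all 4 arrays, 3 had both AT-EAE sizes above both control sizes under each alternative run. The share of all genes ranged from 16.2% to 20.2% under these alternatives. Nothing is read from the steady count, since this contrast chose the 5 enzymes. The count was not rerun with root mean squares or with an array left out. The cause of these moves was not tested beyond the loss of spots. The 4 spots called by limma as shared became 17 with spots on at least 1 array of each group, and 41 to 749 when an array was left out, most without AT-EAE array 1. The 0 spots called for the signed difference became 4 and 1 with that filter and with scaling, and 5 to 333 with an array left out, again most without AT-EAE array 1. A lone array was then assumed to vary like the pair of the other group. With the array number as a replicate block, 21 spots were called for the signed difference, and with the numbers crossed, 0. At an unadjusted limma p under 0.05 the shares were 2.63% and 8.28%, beside 3.61% without a block. The array 1 minus array 2 differences of the groups correlated negatively (r = -0.33 over 10133 spots). As the order of extracts is arbitrary, this r does not settle whether the arrays are paired.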

Other observations

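Fatty acid synthesis shares acetyl-CoA with the sterol pathway and is driven largely by SREBP-1. On AT-EAE array 2, 8 of 9 measured genes of this list lay above the array median, with a list median of 0.21 relative to it, and on AT-EAE array 1, 7 of 10 did so, with a median of 0.04. On control arrays 1 and 2, 4 and 5 of 10 lay above, with medians of -0.09 and -0.03. The count on AT-EAE array 2 was not particular to this list. Sterol transport and turnover also had 8 of 9 genes above there, with a median of 0.17. Sterol regulation had 3 of 4 above and the isoprenoid branch 1 of 3, with medians of 0.18 and -0.13. The following genes were picked after their values were seen. The stearoyl-CoA desaturase gene Scd1 was at 0.13 and 0.78 on the AT-EAE arrays, against 0.56 and 0.02 on the control arrays. The desaturase gene Fads1 was at 0.00 and 0.56 on the AT-EAE arrays, against -0.08 and -0.16 on the control arrays. Malic enzyme, Me1, which supplies NADPH, was at 0.01 and 0.42 on the AT-EAE arrays, against 0.07 and 0.06 on the control arrays. The citrate lyase gene Acly went the other way on AT-EAE array 2, at 0.03 and -0.48 on the AT-EAE arrays, against -0.24 and -0.36 on the control arrays. The median log2 of AT-EAE over control size of the list was 0.60, beside 0.38 over all genes, and both AT-EAE sizes exceeded both control sizes for 0 of its 9 complete genes, beside 20.3% of all genes. Acaca and Acacb, the acetyl-CoA carboxylase genes, had both AT-EAE sizes below both control sizes, as 10.3% of all genes did.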
